A study of Arabidopsis thaliana with 9 samples.

Results

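AP2/ERF transcription factors are a large plant family named for the APETALA2 DNA-binding domain, and the genes that encode them were followed here in cadmium-treated Arabidopsis seedlings. The genes were chosen by the product description in the deposited table, which had to contain a family phrase such as Integrase-type DNA-binding superfamily, ethylene response factor or DREB, and not WRKY. This gave 95 of 26973 genes, 77 by the Integrase-type wording and 18 by the others. Of the 95, 93 encode AP2/ERF factors. The other 2, DRIP1 and DRIP2, encode RING E3 ubiquitin ligases that bind DREB2A and were matched because their description names DREB. The description does not find the whole family: 29 further family genes, among them RAP2.3, RAP2.2, the CBF genes and DREB2A, carry other descriptions and are described separately below.

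Libraries came from seedlings of 3 genotypes, 3 libraries of each: OXmiR400, OXrPPR1 and wild type, all with Colombia in the sample titles. Every seedling, wild type included, had received 100 µM cadmium for 6 h, so the comparisons are between genotypes under the metal and use no untreated sample. The labels give no age, promoter, number of independent transgenic lines or separate cultures, and the spread behind each p-value is that between libraries, which may be technical. MIR400, the precursor of the microRNA miR400, was listed at 953, 684 and 629 FPKM (fragments per kilobase per 1e6 fragments, the unit inferred from the values) in OXmiR400, against 0.194, 0.572 and 0 FPKM in wild type. PPR1, a pentatricopeptide repeat gene targeted by miR400, was listed at 25.5, 24.7 and 21.9 FPKM in OXrPPR1, against 2.4, 2.17 and 2.54 FPKM in wild type. The spacing of the lowest values put each library at 12.6 to 21.1 units of depth, counted in 1e6 reads or fragments. OXrPPR1 replicate 3 correlated on average at 0.9635 with the other OXrPPR1 libraries and at 0.9655 with the wild type libraries (log2 values across 19955 genes, which are not independent replicates). OXrPPR1 replicate 1 correlated on average at 0.9683 with its own genotype and at 0.9702 with OXmiR400. Wild type replicate 2 had its highest correlation, 0.9745, with an OXrPPR1 library.

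The family divides into several classes. DREB factors (subfamilies A-1 to A-6) bind the dehydration-responsive or C-repeat element and act in cold, drought and heat responses. ERF factors (B-1 to B-6) bind the GCC box, and many of them act downstream of the gaseous hormone ethylene, in defence and in low-oxygen responses. AP2-type factors carry a repeated AP2 domain or descend from genes that do, and control flowering time, floral identity, stem cell niches and oil or wax synthesis. In the TAIR10.1 annotation, 81 of the 95 genes carry a subfamily name, and those names are used here.

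Sequences are shown first for the flowering repressors SNZ and SMZ, the members with the lowest fold changes in OXrPPR1 among those whose libraries did not overlap with wild type, and for AP2, which shares their regulator. These mRNAs are known targets of the microRNA miR172, a different microRNA from the miR400 of the transgenic line. The mature sequence was read from the TAIR10.1 genome at the annotated position (chromosome 2, 11942918 to 11942938, minus strand), with the seed, bases 2 to 8, in capitals. The site of each mRNA is written 5′ to 3′ with the bases that match the exact complement of miR172a in capitals. Pairs of G with U (T in these letters) were written in small letters and counted as mismatches.
miR172a: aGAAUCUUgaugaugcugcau
AP2: cTGCAGCATCATCAgGATTCT
SMZ: tTGCAGCATCATCAgGATTCc
SNZ: tTGtAGCATCATCAgGATTCc
The AP2 site (chromosome 4, 17403019 to 17403039, plus strand) had 2 mismatches, the SMZ site (chromosome 3, 20373774 to 20373794, minus strand) 3, and the SNZ site (chromosome 2, 16389066 to 16389086, minus strand) 4. All 3 lie in coding sequence. In a search of the annotated transcripts of 24201 genes, 36 genes held a stretch with at most 4 mismatches, and of the 95 genes these were the 3 shown.

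A few of the 95 genes held most of their summed level. Of the 95 genes, 24 averaged at least 10 FPKM, 35 averaged 1 to 10 FPKM and 36 averaged under 1 FPKM. None was at 0 in all 9 libraries, and 22 were listed at 0 in at least 1. A zero in such a table can be a failed estimate. The 10 highest genes held 57.9% of the summed FPKM of the 95, and DEWAX and AT1G36060 together held 22.4%; the family genes outside the description are not in these sums. The tests took genes averaging 1 FPKM or more in any genotype, which kept 61 of the 95 (59 encoding factors) and left 34 below the filter. The 61 had a median level of 6.95 FPKM, against 10.9 FPKM for all 19955 tested genes.

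**Figure D1:**
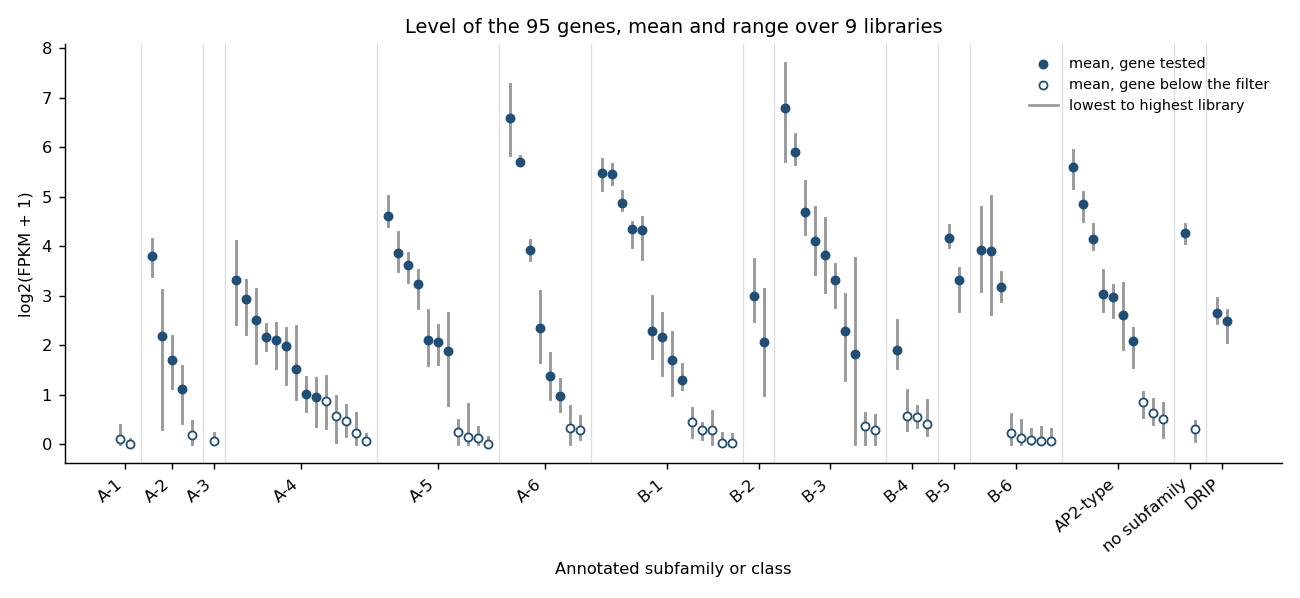
Level of each of the 95 genes by annotated subfamily or class, on the log2(FPKM + 1) scale. Points are means over 9 libraries, filled where the gene was tested and open where it lay below the filter. Grey bars run from the lowest to the highest library. Subfamilies B-3 and A-6 hold the highest points, followed by WRI4 of the AP2-type class, and A-1 and A-3 hold only open points near 0.

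DEWAX (AT5G61590, chromosome 5, 24764256 to 24765511, minus strand), a subfamily B-3 repressor of leaf wax synthesis, had the highest mean. It measured 51.55, 111.7 and 113.8 FPKM in OXmiR400, 117.6, 206.6 and 90.8 FPKM in OXrPPR1, against 83.7, 112.8 and 93.8 FPKM in wild type. The highest and the lowest of the 9 values both belonged to transgenic libraries, and all genotypes overlapped. AT1G36060, of subfamily A-6, was second. ERF1A, an ethylene-responsive activator of defence genes, averaged 52.7 ± 3.49 FPKM in OXmiR400, 61.4 ± 13.2 FPKM in OXrPPR1, against 61.1 ± 6.18 FPKM in wild type (SD, n = 3 each). AT1G22190, also of A-6, held between 48.5 and 55.6 FPKM in all 9 libraries, the narrowest range among the 10 highest members. WRI4, an AP2-type activator of fatty acid synthesis for stem wax, averaged 45.0 ± 8.88, 52.6 ± 9.84 and 45.3 ± 10.3 FPKM in OXmiR400, OXrPPR1 and wild type (SD, n = 3 each). The subfamily B-1 repressors ERF4 and ERF7, which carry an EAR repression motif, averaged 43.6 and 28.4 FPKM over the 9 libraries, and AT2G41710, an AP2-type gene, averaged 28.0 FPKM.

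No member passed the test in any pair of genotypes. In OXmiR400 against wild type, 0 members were called in limma at adjusted p under 0.05, where 0.571% of all tested genes were called. At unadjusted p under 0.05 there were 8 members, 13.1% of those tested, against 15.9% of all genes. In OXrPPR1 against wild type 0 members were called (all genes 0.0651%), and 9 had an unadjusted p under 0.05, 14.8% against 10.5% of all genes. In OXmiR400 against OXrPPR1 0 members were called (all genes 0.0651%), with 4 under the unadjusted threshold, 6.56% against 7.41%. The median log2 fold change of the members was -0.03, 0.02 and 0.03 in these comparisons, against -0.02, -0.02 and 0.00 over all tested genes. The smallest adjusted p of a member was 0.127, 0.240 and 0.382. A p above the threshold does not show that a gene was equal between genotypes, and with 3 libraries a side a small difference could be missed.

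Members whose libraries did not overlap between genotypes were about as frequent as, or less frequent than, such genes among all those tested. In OXmiR400 against wild type, 8 members had all their OXmiR400 libraries above all the wild type libraries (13.1% of those tested, against 10.8% of all genes) and 3 had them below (4.92% against 13.5%). In OXrPPR1 against wild type, 3 lay above (4.92% against 6.36%) and 4 below (6.56% against 8.33%). In OXmiR400 against OXrPPR1, 4 lay above (6.56% against 5.90%) and 4 below (6.56% against 7.28%). The genes described next are those separated members averaging 2 FPKM or more where they were higher, except ERF8, which lay above wild type in OXmiR400 by only 0.14 on the log2 scale. None passed the test. Both transgenic lines were compared with the same 3 wild type libraries, so a value they share with wild type enters both comparisons.

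**Figure D2:**
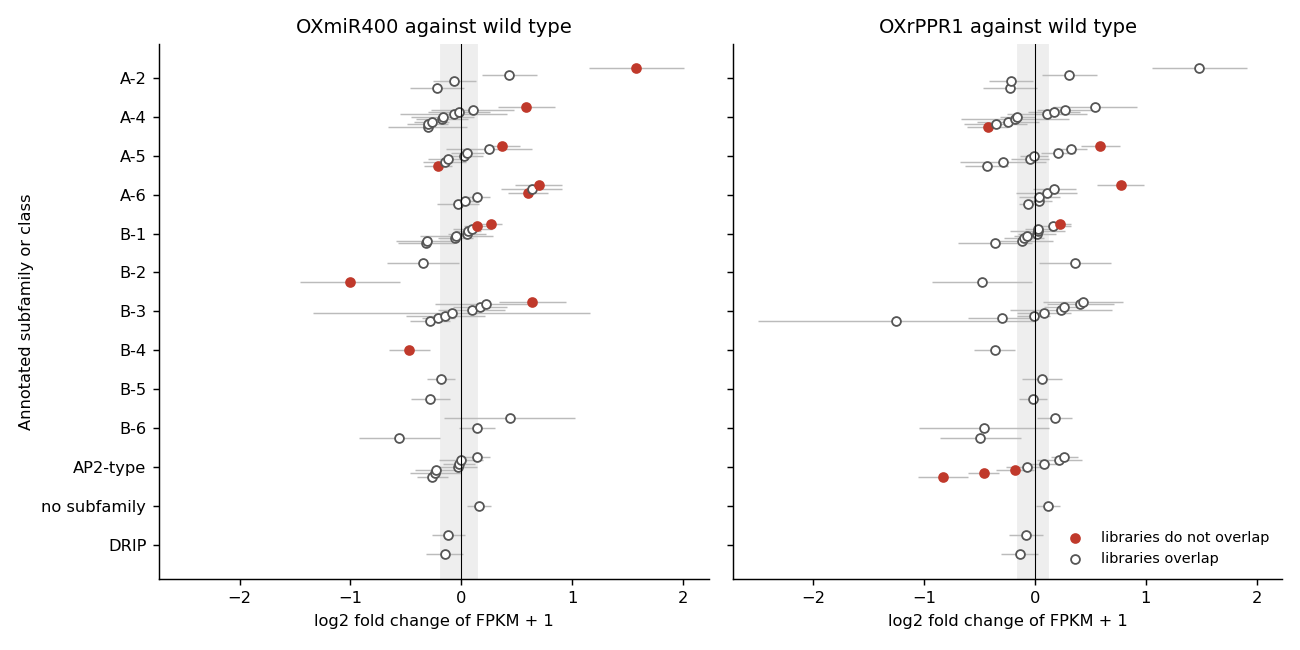
Log2 fold change of FPKM + 1 of each tested member by subfamily or class, for OXmiR400 against wild type (left) and OXrPPR1 against wild type (right), with bars of 1 standard error. Filled points are members whose libraries did not overlap and the grey band holds the middle 50% of all tested genes; DREB19 and AT1G36060 lie right of 0 and HRE2 left of it in OXmiR400, and SNZ and SMZ lie left of 0 in OXrPPR1.

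Among the DREB genes, AT1G36060 (chromosome 1, 13454496 to 13456336, minus strand) stood out for combining a high level with separated libraries. It belongs to A-6, the subfamily of RAP2.4, a factor of light and drought responses. It measured 132.5, 91.2 and 98.2 FPKM in OXmiR400, 99.1, 91.4 and 153.5 FPKM in OXrPPR1, against 56.5, 64.1 and 75.1 FPKM in wild type. Every library of either transgenic line lay above the highest wild type library. The log2 fold change was 0.70 ± 0.21 in OXmiR400 (± SE; limma adjusted p = 0.154) and 0.78 ± 0.21 in OXrPPR1 (± SE; limma adjusted p = 0.240). Without OXrPPR1 replicate 3, whose value is the highest, the OXrPPR1 difference was 0.55.

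The other A-6 genes were lower in level and mixed. AT2G22200 measured 2.62, 2.01 and 2.32 FPKM in OXmiR400, 1.86, 0.896 and 1.06 FPKM in OXrPPR1, against 1.165, 1.269 and 1.096 FPKM in wild type. The OXmiR400 libraries lay above the 6 others. Its log2 fold change in OXmiR400 was 0.60 ± 0.18 against wild type (± SE; limma adjusted p = 0.153) and 0.56 ± 0.18 against OXrPPR1 (± SE; limma adjusted p = 0.534). With a pseudocount of 0.1 these were 0.92 and 0.87. AT1G22190 lay slightly higher in every OXmiR400 library than in every OXrPPR1 library, by 0.09 ± 0.09 on the log2 scale (± SE; limma adjusted p = 0.900). Of 6 tested A-6 genes, 5 had a log2 fold change above 0 in OXmiR400 and 5 in OXrPPR1 against wild type, with medians of 0.37 and 0.07. Summed over the 8 genes of the subfamily, the libraries held 167.4 to 213.3 FPKM in OXmiR400, 159.2 to 222.1 FPKM in OXrPPR1 and 131.3 to 141.7 FPKM in wild type. AT1G36060 alone averaged 107.3, 114.7 and 65.2 FPKM of these sums.

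DREB19 (AT2G38340, chromosome 2, 16067396 to 16068615, minus strand), an A-2 factor of the group that holds the drought and heat regulator DREB2A, had the largest fold change against wild type among the 61 tested members. It measured 3.55, 4.63 and 6.095 FPKM in OXmiR400, 1.92, 7.66 and 4.86 FPKM in OXrPPR1, against 2.09, 0.7605 and 0.248 FPKM in wild type. The OXmiR400 libraries all lay above wild type, and OXrPPR1 replicate 1 lay below wild type replicate 1. The log2 fold change was 1.58 ± 0.43 in OXmiR400 (± SE; limma adjusted p = 0.127) and 1.48 ± 0.43 in OXrPPR1 (± SE; limma adjusted p = 0.284). With a pseudocount of 0.1 in place of 1 the OXmiR400 value was 2.45. An annotated gene on the other strand, AT2G38350, covers 22.5% of DREB19 and was listed at 0 to 0.368 FPKM. Also on that strand, AT2G38330 covers 3.44% and was listed at 12.2 to 15.8 FPKM. The long noncoding RNA gene AT2G08960 covers 16.8% and was not listed. Whether counting used strand is not stated. The other tested A-2 genes, AT1G75490, DREB2C and AT3G57600, overlapped between genotypes in every comparison.

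**Figure D3:**
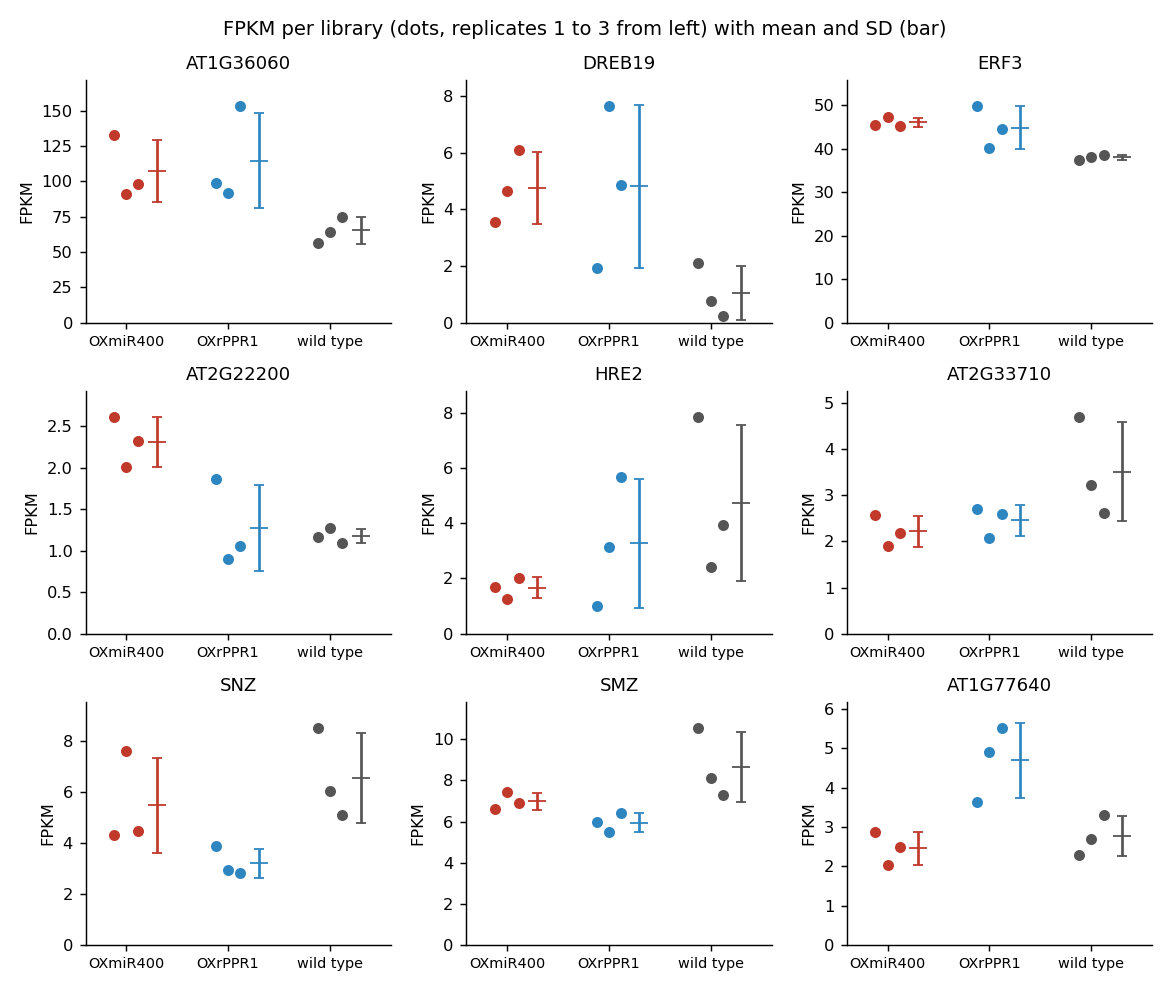
FPKM in each library of 9 members whose libraries did not overlap in at least 1 comparison, with OXmiR400, OXrPPR1 and wild type from left to right. Dots are libraries and bars are mean and SD (n = 3); AT1G36060 and ERF3 lie above wild type in every transgenic library, and SNZ and SMZ have their lowest values in OXrPPR1.

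Subfamily A-5, which includes small repressors with an EAR motif, gave separated genes in each comparison. AT1G77640 (chromosome 1, 29178705 to 29179877, plus strand) measured 2.86, 2.03 and 2.49 FPKM in OXmiR400, 3.65, 4.92 and 5.52 FPKM in OXrPPR1, against 2.29, 2.70 and 3.31 FPKM in wild type. OXrPPR1 lay above both other genotypes, by 0.59 ± 0.18 over wild type (log2, ± SE; limma adjusted p = 0.294), and OXmiR400 lay below OXrPPR1 with a log2 fold change of -0.71 with an SE of 0.18 (limma adjusted p = 0.382). AT4G31060 averaged 9.51 ± 0.960 FPKM in OXmiR400 and 7.19 ± 1.41 FPKM in wild type (SD, n = 3 each). DEAR2 averaged 10.1 ± 1.24 FPKM in OXmiR400 and 11.8 ± 0.712 FPKM in wild type, and DEAR3 averaged 12.6 ± 0.438 FPKM in OXmiR400 and 15.5 ± 2.63 FPKM in OXrPPR1 (SD, n = 3 each). DEAR factors are repressors of DREB-type targets. The adjusted p-values in limma were 0.282 for AT4G31060, 0.463 for DEAR2 and 0.740 for DEAR3 in these comparisons. The log2 fold change of AT4G31060 was 0.37, and 0.23 without wild type replicate 1. That of DEAR2 was -0.21, and -0.11 without OXmiR400 replicate 1, and that of DEAR3 was -0.27, and -0.14 without OXrPPR1 replicate 3. DREB26 averaged 24.1, 22.5 and 23.4 FPKM in OXmiR400, OXrPPR1 and wild type, and ORA47, an activator of jasmonate synthesis genes, averaged 3.28, 2.49 and 3.73 FPKM.

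Subfamily A-4, the TINY group, was mostly low, with 9 of 14 genes tested. AT1G77200 measured 3.99, 4.11 and 3.20 FPKM in OXmiR400, against 2.86, 1.34 and 2.50 FPKM in wild type, a log2 fold change of 0.59 with an SE of 0.26 (limma adjusted p = 0.301), which was 0.37 without wild type replicate 2. AT3G16280 averaged 2.79 ± 0.522 FPKM in OXmiR400 and 3.80 ± 0.584 FPKM in OXrPPR1 (SD, n = 3 each), a log2 fold change of -0.34 with an SE of 0.24 (limma adjusted p = 0.825), which was -0.22 without OXmiR400 replicate 2. TINY averaged 3.12, 3.44 and 3.96 FPKM in OXmiR400, OXrPPR1 and wild type. The A-1 genes DDF1 and DDF2, relatives of the CBF cold regulators, were listed at 0.308 FPKM or less in every library.

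Among the ERF genes of the 95, the highest levels were in B-1 and B-3. ERF3 (chromosome 1, 18756972 to 18758708, minus strand), a B-1 repressor with an EAR motif, measured 45.5, 47.3 and 45.3 FPKM in OXmiR400, 49.9, 40.1 and 44.65 FPKM in OXrPPR1, against 37.4, 38.0 and 38.5 FPKM in wild type. All 6 transgenic libraries lay above the 3 wild type libraries, which were close together. The difference was small: 0.27 ± 0.10 in OXmiR400 (log2, ± SE; limma adjusted p = 0.214) and 0.23 ± 0.10 in OXrPPR1 (log2, ± SE; limma adjusted p = 0.449), which was 0.15 without OXrPPR1 replicate 1. ERF4, also of B-1, averaged 44.4 ± 5.85, 43.7 ± 9.61 and 42.8 ± 6.09 FPKM in OXmiR400, OXrPPR1 and wild type (SD, n = 3 each). ERF11, a B-1 gene that limits ethylene synthesis, averaged 4.22, 3.04 and 4.48 FPKM.

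In subfamily B-3, the ethylene and defence factors, ERF2 (chromosome 5, 19171643 to 19172956, minus strand) measured 17.6, 15.6 and 13.3 FPKM in OXmiR400, 10.8, 22.7 and 8.72 FPKM in OXrPPR1, against 7.47, 9.80 and 11.7 FPKM in wild type. OXmiR400 lay above wild type by 0.64 ± 0.30 (log2, ± SE; limma adjusted p = 0.341), and the OXrPPR1 range overlapped both. ERF5, which lies 6924 bases away with 1 gene between them, averaged 18.3 ± 7.47, 13.7 ± 5.38 and 16.4 ± 2.64 FPKM in OXmiR400, OXrPPR1 and wild type (SD, n = 3 each), with overlapping libraries. ERF104, a substrate of the kinase MPK6, measured 18.0, 21.2 and 20.7 FPKM in OXmiR400, 27.8, 38.95 and 23.7 FPKM in OXrPPR1, against 23.3, 30.0 and 20.9 FPKM in wild type. OXmiR400 lay below OXrPPR1 in every library, with a log2 fold change of -0.54 with an SE of 0.18 (limma adjusted p = 0.546), which was -0.35 without OXrPPR1 replicate 2. ERF104 lies 832 bases from DEWAX, and both had their highest value in OXrPPR1 replicate 2 and their lowest in OXmiR400 replicate 1. ERF6 averaged 9.46, 9.08 and 8.40 FPKM, and ERF1, an activator of defensin genes, 3.91, 4.04 and 3.67 FPKM in OXmiR400, OXrPPR1 and wild type.

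ERF105 is the clearest case of a value carried by single libraries. It was listed at 10.3 FPKM in OXmiR400 replicate 1 and 12.5 FPKM in wild type replicate 1, and at 0 in the other 7 libraries. The gene lies wholly within AT5G51180 on the opposite strand, which was listed between 11.7 and 17.4 FPKM in all 9 libraries. Whether reads were assigned differently between the pair was not tested.

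In subfamilies B-4 and B-6 most genes lay below the filter, with 1 of 4 and 3 of 8 tested. AT2G33710 (chromosome 2, 14258509 to 14260904, minus strand), the tested B-4 gene, measured 2.57, 1.90 and 2.18 FPKM in OXmiR400, 2.71, 2.08 and 2.59 FPKM in OXrPPR1, against 4.70, 3.23 and 2.62 FPKM in wild type. OXmiR400 lay below every wild type library, by a log2 fold change of -0.47 with an SE of 0.19 (limma adjusted p = 0.260), which was -0.29 without wild type replicate 1. ABR1, an ABA-response repressor, and ERF115, a regulator of root stem cell division, were below the filter, at means of 0.419, 0.557 and 0.457 FPKM and 0.389, 0.544 and 0.505 FPKM in OXmiR400, OXrPPR1 and wild type. The B-5 cytokinin response factors CRF7 and CRF8 averaged 9.04 and 17.05 FPKM over the 9 libraries and overlapped between genotypes. The 3 tested B-6 genes averaged 8.09 to 14.25 FPKM. SHN1, a wax and cutin activator of B-6, was listed at 0 in 7 libraries and reached 0.270 FPKM.

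The low-oxygen factors HRE1 and HRE2 form subfamily B-2 together with genes outside the description. HRE2 (AT2G47520, chromosome 2, 19502776 to 19503702, minus strand) measured 1.70, 1.26 and 2.03 FPKM in OXmiR400, 0.984, 3.15 and 5.66 FPKM in OXrPPR1, against 7.84, 2.404 and 3.94 FPKM in wild type. OXmiR400 lay below every wild type library with a log2 fold change of -1.002 with an SE of 0.45 (limma adjusted p = 0.324), which was -0.63 without wild type replicate 1. HRE1 measured 4.89, 4.71 and 5.07 FPKM in OXmiR400, 4.61, 10.8 and 12.3 FPKM in OXrPPR1, against 9.49, 4.603 and 6.07 FPKM in wild type. The OXmiR400 libraries were the most alike, and the ranges of OXrPPR1 and wild type each spanned them. A gene on the opposite strand, AT1G72370, overlaps 9.74% of HRE1 and was listed at 223.8 to 333.8 FPKM. Whether its reads entered the HRE1 values was not tested.

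Known targets of these factors also varied between libraries. A list of 10 hypoxia-response genes, with ADH1 and PDC1 of fermentation, the haemoglobin HB1 and the oxygen sensors PCO1 and PCO2, summed to 70.15, 72.8 and 106.4 FPKM in OXmiR400, 44.8, 65.6 and 399.7 FPKM in OXrPPR1, against 258.4, 40.5 and 161 FPKM in wild type. OXrPPR1 replicate 3 and wild type replicates 1 and 3 were high, and these libraries also held the 3 highest HRE2 values. No gene of the list was called in any comparison, all 10 had a log2 fold change below 0 in OXmiR400 against wild type (median -0.54), and 9 of 10 did in OXrPPR1 (median -0.10). PDC1, pyruvate decarboxylase, averaged 1.48, 3.16 and 4.69 FPKM in OXmiR400, OXrPPR1 and wild type.

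**Figure D4:**
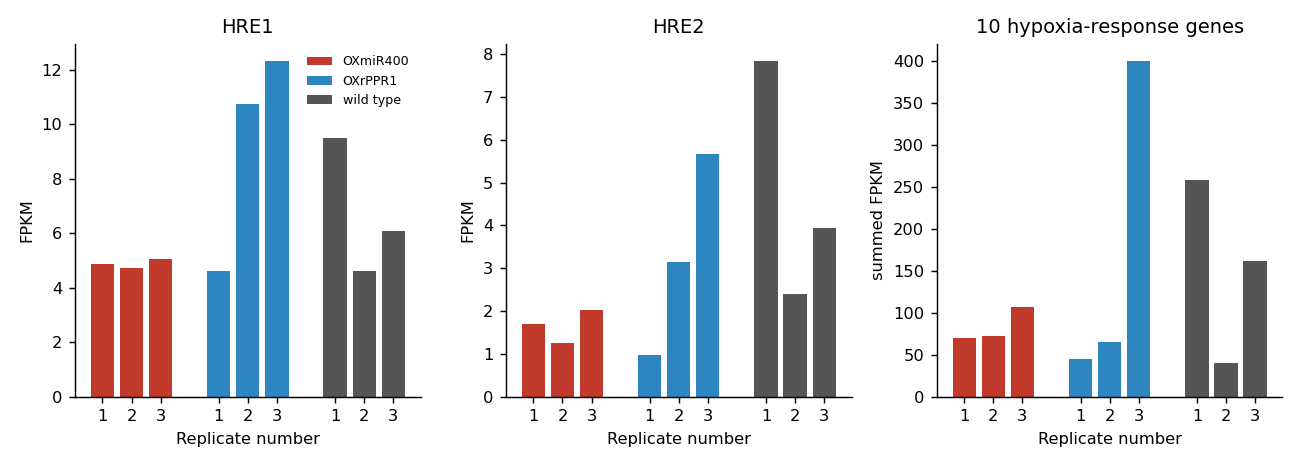
FPKM of HRE1 and HRE2 and the summed FPKM of 10 hypoxia-response genes in each library, with bars for replicates 1 to 3 of OXmiR400, OXrPPR1 and wild type from left to right. The summed level is highest in OXrPPR1 replicate 3 and wild type replicate 1, at 399.7 and 258.4 FPKM, and the 3 OXmiR400 libraries hold 70.15 to 106.4 FPKM.

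Among the AP2-type genes, the flowering repressors SNZ and SMZ separated OXrPPR1 from both other genotypes. SNZ (AT2G39250, chromosome 2, 16388691 to 16391176, minus strand) measured 4.33, 7.61 and 4.48 FPKM in OXmiR400, 3.86, 2.95 and 2.81 FPKM in OXrPPR1, against 8.51, 6.05 and 5.08 FPKM in wild type. The OXrPPR1 libraries lay below the 6 others. The log2 fold change was -0.83 ± 0.23 in OXrPPR1 against wild type (± SE; limma adjusted p = 0.240) and 0.59 ± 0.23 in OXmiR400 against OXrPPR1 (± SE; limma adjusted p = 0.593), which was 0.37 without OXmiR400 replicate 2. SMZ (AT3G54990, chromosome 3, 20373718 to 20376522, minus strand) measured 6.62, 7.42 and 6.90 FPKM in OXmiR400, 5.97, 5.47 and 6.42 FPKM in OXrPPR1, against 10.55, 8.13 and 7.29 FPKM in wild type. OXrPPR1 again held the lowest values, with a log2 fold change against wild type of -0.46 ± 0.14 (± SE; limma adjusted p = 0.295). That of OXmiR400 against OXrPPR1 was 0.20 ± 0.14 (± SE; limma adjusted p = 0.828), with the nearest libraries at 6.62 and 6.42 FPKM. A gene on the opposite strand, AT3G54980, overlaps 19.4% of SMZ and was listed at 3.18 to 4.04 FPKM.

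AP2 itself, whose miR172 site had the fewest mismatches of the 3 members shown, averaged 16.2 FPKM in OXmiR400, 17.5 FPKM in OXrPPR1, against 16.4 FPKM in wild type, with overlapping libraries. The related repressors TOE1, TOE2 and TOE3, whose descriptions fall outside the rule, averaged 26.9, 13.4 and 1.74 FPKM in OXmiR400, 23.4, 13.2 and 1.75 FPKM in OXrPPR1, against 24.8, 16.5 and 1.70 FPKM in wild type. Their libraries overlapped in every comparison. ANT, a growth regulator, averaged 7.14 ± 1.91 FPKM in OXmiR400, 6.21 ± 0.507 FPKM in OXrPPR1, against 7.15 ± 0.428 FPKM in wild type (SD, n = 3 each), and its OXrPPR1 libraries lay below wild type (adjusted p = 0.753 in limma). The root stem cell genes PLT1 and PLT2 stayed at or below 1.09 FPKM in all 9 libraries.

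Promoters are shown for AT1G36060 and ERF3, the members whose transgenic libraries all lay above wild type in both comparisons. Each is the 250 bases before the annotated start (TAIR10.1), written 5′ to 3′ on the gene's strand, with W box letters in capitals. The window of AT1G36060 is chr1:13456337-13456586 and that of ERF3 is chr1:18758709-18758958, both on the minus strand.
AT1G36060: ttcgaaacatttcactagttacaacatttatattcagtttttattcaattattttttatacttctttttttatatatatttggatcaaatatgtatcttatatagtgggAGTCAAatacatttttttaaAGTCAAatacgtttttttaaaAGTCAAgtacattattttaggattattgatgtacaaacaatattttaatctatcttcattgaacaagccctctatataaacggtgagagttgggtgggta
ERF3: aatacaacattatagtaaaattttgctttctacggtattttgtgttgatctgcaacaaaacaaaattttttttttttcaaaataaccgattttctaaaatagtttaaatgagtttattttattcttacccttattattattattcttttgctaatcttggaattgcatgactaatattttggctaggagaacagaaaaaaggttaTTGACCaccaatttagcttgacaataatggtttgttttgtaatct
The GCC box was searched as GCCGCC, on both strands like every motif. The DRE was searched as ACCGAC and also GCCGAC. The ABRE was searched as ACGTGG and also ACGTGT, the W box as TTGACC and also TTGACT. The CGCG box was searched as CGCGTT and also CGCGGT. Matches of different motifs could overlap and were counted separately. AT1G36060 held 3 copies of TTGACT on the opposite strand, starting 141, 121 and 100 bases before the gene, and ERF3 held TTGACC 45 bases before it. At least 3 W boxes were found in 1.06% of 24199 gene windows and in 2 of the 95, a count made after the sequence was seen. Over the 95 windows the W box was present in 29.5% (all genes 28.7%), the ABRE in 21.1% (16.7%), the DRE in 9.47% (7.39%), the CGCG box in 8.42% (3.76%) and the GCC box in 3.16% (1.90%). These are letter matches and say nothing about binding.

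The spread between replicate libraries had a higher median over the tested members than over all tested genes. The pooled within-genotype SD of log2(FPKM + 1) had a median of 0.253 over the 61 tested members and 0.187 over all tested genes. It reached at least 0.5 in 11 members (18.0%, against 5.59% of all genes). Split into a lower and a higher range of levels, the medians from 1 to 10 FPKM were 0.325 for 35 members and 0.218 for all genes, and at 10 FPKM or more 0.218 for 24 members and 0.159 for all genes. Levels within each range were not matched. After ERF105, the largest SDs within a genotype were those of CRF10, ERF1, HRE2 and AT2G44940. CRF10 measured 31.2, 7.72 and 19.2 FPKM in OXmiR400, 6.44, 5.17 and 18.0 FPKM in OXrPPR1, against 16.2, 15.2 and 7.22 FPKM in wild type. AT2G44940, of A-4, measured 16.2, 7.28 and 4.70 FPKM in OXmiR400, 14.5, 6.67 and 4.41 FPKM in OXrPPR1, against 5.91, 12.1 and 9.37 FPKM in wild type. Neither gene separated any pair of genotypes.

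**Figure D5:**
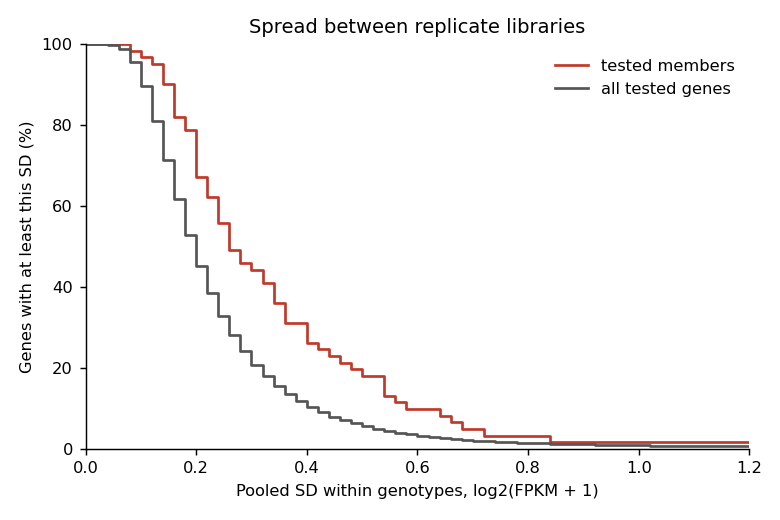
Share of genes (y axis, %) whose pooled SD of log2(FPKM + 1) within genotypes is at least the value on the x axis, for the 61 tested members and for all 19955 tested genes. The curve of the members lies above that of all genes at 0.5, where it stands at 18.0% against 5.59%.

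The genes around the family gave no calls either. In ethylene synthesis 0 of 8 tested genes were called in any comparison. Among 16 receptors and signalling genes, including ETR1, CTR1, EIN2 and EIN3, 0 were called. Of 6 defence targets of ERF factors 0 were called: CHI-B, a basic chitinase, averaged 45.8 ± 9.14 FPKM in OXmiR400, 50.1 ± 8.32 FPKM in OXrPPR1, against 66.5 ± 4.95 FPKM in wild type (SD, n = 3 each; limma adjusted p = 0.142 and 0.417 against wild type). The defensin PDF1.2A was listed at 33.6 FPKM in OXmiR400 replicate 3 and 4.32 FPKM in OXrPPR1 replicate 2, and at 0.409 FPKM or less in the other 7 libraries.

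Of 11 tested DREB and CBF targets 0 were called. In OXrPPR1 against wild type their median log2 fold change was -0.45, 7 were below 0 and 5 had an unadjusted p under 0.05, where 10.5% of all tested genes did. In OXmiR400 against wild type the median was -0.03, 6 were below 0 and 1 had an unadjusted p under 0.05, where 15.9% of all tested genes did. RD29A, a drought and cold marker, measured 49.5, 43.2 and 36.1 FPKM in OXmiR400 and 34.6, 12.4 and 15.3 FPKM in OXrPPR1, against 34.0, 59.5 and 63.6 FPKM in wild type (log2 fold change of OXrPPR1 -1.38, adjusted p = 0.239 in limma). LTI30, a cold-induced dehydrin, measured 27.1, 20.03 and 20.9 FPKM in OXmiR400, 61.7, 30.2 and 16.4 FPKM in OXrPPR1, against 42.5, 132.4 and 72.8 FPKM in wild type. The OXmiR400 libraries of LTI30 all lay below wild type (adjusted p = 0.175 in limma). Of the 11 targets, 5 lay above 0 in OXmiR400. The OXmiR400 libraries of COR15A all lay above wild type, at 1.28, 2.88 and 0.733 FPKM against 0.6605, 0.699 and 0.480 FPKM (log2 fold change 0.62, limma adjusted p = 0.492). KIN2 had the highest log2 fold change of the list in OXmiR400, 0.90, with overlapping libraries (limma adjusted p = 0.365). Of 5 regulators of the CBF genes and 10 early stress and touch genes 0 were called, and ZAT10 and ZAT12 are in both lists. ZAT12 lay below every wild type library in OXrPPR1, with a log2 fold change of -0.85 (limma adjusted p = 0.333). In that comparison 2 of the regulators and 3 of the stress and touch genes lay above 0.

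Of the 29 family genes outside the description, 25 were tested and 0 called. In OXmiR400 against wild type 9 had a log2 fold change above 0 and 16 below, and in OXrPPR1 11 and 14. In each comparison with wild type 3 had an unadjusted p under 0.05 in limma, where 15.9% and 10.5% of all tested genes did. In OXmiR400 these were CEJ1 (log2 fold change -0.57), CRF5 (0.61) and RAV1 (-0.44), and the libraries of each lay apart from wild type. In OXrPPR1 they were CBF1 (-0.58), CBF2 (-0.79) and RAV1 (-0.39). Of these, CBF1 alone had libraries that did not overlap with wild type. RAP2.3, a low-oxygen factor, had the highest mean of the 95 and these 29 genes, at 2398 FPKM in OXmiR400, 2757 FPKM in OXrPPR1, against 2151 FPKM in wild type (means of 3). RAP2.2 averaged 237.9, 277 and 265.5 FPKM and RAP2.4 177.6, 180 and 188.7 FPKM in OXmiR400, OXrPPR1 and wild type. RAP2.12 averaged 8.62, 20.9 and 21.0 FPKM in the same order. Its OXmiR400 libraries lay below every OXrPPR1 library (log2 fold change -1.09, limma adjusted p = 0.738) and overlapped with wild type. DREB2A, the heat and drought regulator bound by the DRIP ligases, averaged 8.53, 7.18 and 12.1 FPKM in OXmiR400, OXrPPR1 and wild type. CBF2 averaged 6.51, 2.63 and 5.25 FPKM. DRIP1 averaged 4.40, 4.53 and 4.99 FPKM and DRIP2 5.03, 5.21 and 5.59 FPKM, with overlapping libraries.

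Marker lists for organs and dividing cells gave the values that follow. All 8 root markers had a log2 fold change below 0 in OXmiR400 against wild type (median -0.81), their summed level was 29.9 to 33.75 FPKM in OXmiR400, 44.8 to 72 FPKM in OXrPPR1 and 53.8 to 83.3 FPKM in wild type, and none was called (smallest adjusted p = 0.0929 in limma). All 5 green leaf markers lay above 0 in OXmiR400 against wild type (median 0.30, smallest adjusted p = 0.0609 in limma, none called). In OXrPPR1 against wild type 4 of the 5 did (median 0.26, smallest adjusted p = 0.595 in limma, none called). Of 4 dividing cell markers 0 were called, and the list medians against wild type were -0.007403 in OXmiR400 and -0.03834 in OXrPPR1 (log2). CYCB1;1, with log2 fold changes of 1.05 and 0.79, stood apart from KNOLLE (-0.08 and -0.15), CDKB2;1 (0.07 and -0.03) and CDKB2;2 (-0.25 and -0.05). CYCB1;1 measured 7.03, 7.63 and 10.95 FPKM in OXmiR400, 4.85, 7.82 and 8.37 FPKM in OXrPPR1, against 4.28, 2.98 and 3.44 FPKM in wild type. The part of organ composition in the member values was not tested, and in whole seedlings fewer cells of a type and less RNA per cell cannot be told apart.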

How the data were processed

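mRNA-seq libraries were made from total RNA with a SMARTer kit, per the labels' protocols. The deposited values carry no unit; FPKM made by the authors was inferred, since values times exon length sum to 0.993 to 0.998 of the total that FPKM implies. Of low values 99.4% to 99.8% fell on steps of 1 read or fragment divided by 4 (tolerance 0.05 of a step) and 48.9% to 55.3% on whole units, so no count model was used. All 3 deposited tables were identical. The submitters' processing notes name the builds GRCm38 and mm10, which are mouse builds; no source used here gives the aligner or counter. Gene positions matched TAIR10.1 for 26504 of 26513 loci and for all 95 members. The 19955 genes averaging 1 FPKM or more in any genotype were fitted as log2(FPKM + 1) in 1 limma model over 9 libraries (limma 3.58.1, R 4.3.3; trended, robust variance; Benjamini-Hochberg adjustment over all genes). Fold changes on this scale understate the change of low genes. The fit was checked on simulated data. Members were named by a rule: called members, per comparison up to 6 highest and 6 lowest separated members of at least 2 FPKM, the 10 highest levels, members with known roles, the 5 largest spreads, 5 below the filter, and genomic neighbours of separated members; of other lists, up to 4 genes with the smallest p. The other genes printed (AP2, the TOE, RAP2 and DRIP genes, CBF2, DREB2A, DREB2C, AT1G75490, AT3G57600, DDF2, CRF7, CRF8, ERF8, and any further list gene) were chosen after their values were seen. Members and lists were chosen with earlier results of these data known.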

Additional observations from a re-analysis of the deposited data

How the results depend on the processing

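Under 18 alternative settings (quantile normalization, median centring, no filter, a filter of 5 FPKM, a pseudocount of 0.1, no variance trend, a fit on just the 6 libraries compared, a replicate block, the family genes outside the description added, and each of the 9 libraries left out) 0 members were called in any comparison; the smallest adjusted p of any member was 0.0756. All 382 recomputed values of the 23 named fold changes kept their direction. These 23 were chosen because their libraries did not overlap, so most settings, such as leaving out a library, could not have reversed it. The median log2 fold change of the members ranged, without single libraries and under the other settings, from -0.1103 to 0.02308 for OXmiR400 against wild type (-0.1103 without OXmiR400 replicate 1 and 0.02206 without OXmiR400 replicate 2, with the value without replicate 1 beyond the spread of 0.07 between replicates; the cause was not tested), from -0.03 to 0.06 for OXrPPR1 against wild type and from -0.03 to 0.05 for OXmiR400 against OXrPPR1. Deviations of libraries with the same replicate number correlated at -0.246 to 0.133 over 9 pairs, and those with different numbers at -0.378 to 0.31. With 3 libraries of each genotype these values cannot decide whether the numbers mark pairs. With the replicate block 0 members were called. The OXmiR400 median stayed at -0.03, which the block could not change, since each genotype holds each replicate number once. Depth of 12.6 to 21.1 (in 1e6 reads or fragments) limits the 36 members under 1 FPKM, whose values rest on few reads.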
